A study of Rattus norvegicus with 8 samples.

Results

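The reactive astrocyte genes examined here were 10 rat genes, *Gfap*, *Vim*, *Aqp4*, *Cd44*, *Osmr*, *Serpina3n*, *Lcn2*, *Timp1*, *S100a10* and *Gbp2*, whose expression was compared in the *substantia nigra* (SN) of rats given human α-synuclein (AAV-αSyn) or an empty vector (AAV-Null). They were taken by name as genes associated with astrocyte reactivity, and every probe whose RefSeq identifier maps to one of these symbols was kept, which gave 12 probes among the 45598 of the array and 10 of the 16678 gene symbols it names. All 10 genes had a probe, and 9 of them, on 11 probes, gave enough signal to be tested. None of the 9 genes showed a difference between the groups larger than the spread between rats. The spread itself was wide: within a group, *Gfap*, *Cd44* and *Lcn2* varied more than at least 92.9% of all probes tested did. The genes tended to be high or low on the same arrays, though no correlation between a pair of them passed adjustment.

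The arrays address which transcripts of the SN differ between rats with raised α-synuclein (the wild-type human form) and rats without it, a setting meant to stand for the aged midbrain. Female Sprague-Dawley rats, 3 months old at surgery, received an injection into the SN on one side, and the tissue of the injected side was taken 20 weeks later. The AAV-αSyn group received an AAV6 vector carrying the human gene at 5.2e10 vector genomes per µL, and the AAV-Null group received AAV6-Null at 5.3e9 vector genomes per µL. The titre therefore differed with the vector, and an effect of the transgene and an effect of the dose of virus cannot be told apart. All rats of both groups had surgery and a virus, and there was no unoperated group. The promoter of the vector is not given in the sources used here. Of each group of 10 rats there are 4 arrays, whereas the methods state 3 biological replicates. Each array is taken here as the SN of 1 rat.

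Astrocytes respond to injury, inflammation and neuronal loss by a change of state known as reactivity or astrogliosis, in which the intermediate filaments of the cell are built up, its processes thicken and secreted acute-phase and matrix proteins appear. Cytokines that signal through gp130 and STAT3, among them interleukin-6, leukaemia inhibitory factor and oncostatin M, are established drivers of the response, and interferons induce a further set of genes in it. In the SN the state is best known from lesions of dopaminergic neurons and from tissue of patients with Parkinson's disease. None of these genes belongs to astrocytes alone: *Vim* and *S100a10* are also made by endothelial cells, *Lcn2* by neutrophils and *Cd44* by microglia and other leukocytes. In pieces of whole tissue, more cells of a type and more RNA per cell cannot be told apart.

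Expression is given throughout as the normalised log2 intensity of a probe, so that a difference of 1 is a doubling of signal, and levels of different probes are not compared with each other. On the 8 arrays, 74.8 to 77.5% of spots were well above background. Probes of astrocyte genes that mark the cell in its resting state were clear in both groups: all 19 such genes with a probe, among them the glutamate transporters *Slc1a2* and *Slc1a3* and glutamine synthetase *Glul*, were above background on all 8 arrays, with a mean level of 13.16 to 13.30 in AAV-Null and 13.15 to 13.23 in AAV-αSyn. The 7 markers of dopaminergic neurons were likewise above background on all 8 arrays. *Th*, which encodes the rate-limiting enzyme of dopamine synthesis, was at 16.70, 16.51, 16.30 and 16.43 in AAV-Null and at 15.99, 15.99, 16.01 and 15.88 in AAV-αSyn, with no overlap.

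*Gfap* encodes the intermediate filament protein of astrocytes whose build-up is the usual measure of reactivity. In AAV-Null rats 1 to 4 it was at 11.96, 11.53, 11.76 and 10.25, and in AAV-αSyn rats 1 to 4 at 11.62, 11.85, 11.33 and 11.03. The lowest and the highest of the 8 values were both in AAV-Null, so all AAV-αSyn arrays lay inside the range of the controls. The means were 11.37 ± 0.77 (SD, n = 4) in AAV-Null and 11.46 ± 0.36 (SD, n = 4) in AAV-αSyn. The difference was 0.08 on the log2 scale (SE 0.37, 95% interval -0.77 to 0.94; limma adjusted p = 0.992), a fold of 1.06 with an interval of 0.588 to 1.91. Without AAV-Null replicate 4 the difference was -0.29 (limma unadjusted p = 0.204), and without AAV-αSyn replicate 2 it was -0.046, so the sign of the *Gfap* difference depended on single arrays.

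*Vim* encodes vimentin, the filament protein that assembles with GFAP in reactive astrocytes. It was at 10.92, 10.88, 10.51 and 9.93 in AAV-Null and at 10.60, 10.61, 10.52 and 10.61 in AAV-αSyn. As for *Gfap*, every AAV-αSyn array lay inside the range of the controls and AAV-Null replicate 4 was the lowest of the 8. The means were 10.56 ± 0.46 (SD, n = 4) in AAV-Null and 10.58 ± 0.045 (SD, n = 4) in AAV-αSyn. The difference was 0.03 (SE 0.21, 95% interval -0.45 to 0.50; limma adjusted p = 0.995), and -0.18 without AAV-Null replicate 4.

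*Aqp4* encodes aquaporin-4, the water channel of astrocyte endfeet around vessels. Its probe read 15.70, 15.34, 15.04 and 15.08 in AAV-Null and 15.51, 15.53, 15.35 and 15.19 in AAV-αSyn. The AAV-αSyn values again fell between the lowest and the highest control. The difference was 0.10 (SE 0.16, 95% interval -0.26 to 0.47; limma adjusted p = 0.975).

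The receptors of the set were *Cd44* and *Osmr*. *Cd44* encodes a cell-surface receptor for hyaluronan that astrocytes raise in scars, and it is the member with the most probes, 3 in all. The brightest read 8.23, 7.69, 6.98 and 6.84 in AAV-Null and 7.82, 7.59, 6.74 and 6.97 in AAV-αSyn. In each group the arrays of replicates 1 and 2 were above those of replicates 3 and 4, and the groups overlapped. The difference was -0.15 (SE 0.36, 95% interval -0.98 to 0.67; limma adjusted p = 0.987). The other probes of *Cd44* also had replicates 1 and 2 above replicates 3 and 4 in each group, from 4.63 to 6.23 in AAV-Null and from 4.77 to 5.91 in AAV-αSyn, with differences of 0.00 and 0.07, so the 3 probes did not share a direction.

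*Osmr* encodes the receptor subunit through which oncostatin M acts. Its probe was not well above background on any of the 8 arrays and was not tested. Its values, 1.47 to 2.57 in AAV-Null and 1.55 to 2.66 in AAV-αSyn without the filter on dim probes, lay at or below the dimmest signals called above background, which were between 2.52 and 3.50 depending on the array.

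*Serpina3n* encodes a secreted serine protease inhibitor, an acute-phase protein and one of the genes most often used to mark reactive astrocytes. Its probe was dim. It read 3.76, 3.40, 2.84 and 3.86 in AAV-Null and 4.17, 3.36, 3.53 and 4.46 in AAV-αSyn, and was not well above background in AAV-Null replicate 3 and AAV-αSyn replicate 2. The 2 highest values were in AAV-αSyn, and the other 2 AAV-αSyn arrays fell among the controls. The means were 3.46 ± 0.46 (SD, n = 4) and 3.88 ± 0.52 (SD, n = 4). The difference was 0.42 (SE 0.30, 95% interval -0.28 to 1.12; limma adjusted p = 0.971), computed with the values at background of those 2 arrays, so it is not given as a fold. It was 0.078 with normexp background correction, 0.21 on leaving out replicate 3 of AAV-Null and 0.23 on leaving out replicate 4 of AAV-αSyn, and under each of these that of *Lcn2* was larger.

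The promoters of the members were searched for the letters of the motif of STAT3, the factor on which the gp130 cytokines converge. The window searched was the 250 bases before the start of the gene, available from RefSeq for 9 of the members (not *S100a10*), with 10 windows because *Aqp4* has 2 starts. The motif was TTCNNNGAA, which reads the same on both strands, and 2566 of 33469 windows of this length in the RefSeq table of the rat, 7.67%, hold it. Of the members' 10 windows 1 did, that of *Serpina3n*, a share near that background. The windows of *Serpina3n* (GRCr8, chr6:129088142-129088391, plus strand) and of *Gfap* (GRCr8, chr10:88361662-88361911, minus strand) are shown 5′ to 3′ as examples of a window with a match and of one without, the latter for the usual measure of reactivity. Capitals mark the match, which begins 123 bases before the start of *Serpina3n*. The *Gfap* window holds no match, which says only that these letters do not occur in it.
Serpina3n: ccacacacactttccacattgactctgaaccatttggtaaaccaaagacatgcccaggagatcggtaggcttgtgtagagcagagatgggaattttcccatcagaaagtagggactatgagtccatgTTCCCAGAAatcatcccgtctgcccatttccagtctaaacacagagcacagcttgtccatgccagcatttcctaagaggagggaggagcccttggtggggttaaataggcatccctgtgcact
Gfap: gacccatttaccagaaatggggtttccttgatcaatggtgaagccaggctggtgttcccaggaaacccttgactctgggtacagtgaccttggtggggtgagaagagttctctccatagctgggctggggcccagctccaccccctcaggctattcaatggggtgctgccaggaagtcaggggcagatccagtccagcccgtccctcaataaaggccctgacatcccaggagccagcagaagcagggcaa

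*Lcn2* encodes lipocalin-2, an acute-phase protein that binds iron-carrying siderophores. It was at 8.05, 7.39, 7.13 and 6.46 in AAV-Null and at 8.18, 7.38, 7.29 and 7.48 in AAV-αSyn. Replicate 1 was the highest of its group in both, and AAV-Null replicate 4 was the lowest of all. The difference was 0.33 (SE 0.34, 95% interval -0.45 to 1.11; limma adjusted p = 0.973), a fold of 1.25 with an interval of 0.731 to 2.15. On leaving out single arrays it was between 0.059, without AAV-Null replicate 4, and 0.59, without AAV-Null replicate 1. *Timp1*, which encodes an inhibitor of matrix metalloproteinases, had the same array on top in each group. It read 10.25, 9.83, 9.11 and 9.11 in AAV-Null and 10.12, 9.57, 9.61 and 9.94 in AAV-αSyn, all 4 of the latter between the lowest and the highest control. The difference was 0.24 (SE 0.27, 95% interval -0.39 to 0.87; limma adjusted p = 0.973), and between 0.082 and 0.46 on leaving out single arrays, lowest without AAV-Null replicate 4 and highest without AAV-Null replicate 1.

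*S100a10* and *Gbp2* stand for the groups of genes associated in earlier work with the A2 and A1 forms of reactive astrocyte. *S100a10* encodes p11, the partner of annexin A2 at the membrane. It was at 11.91, 11.67, 11.35 and 11.63 in AAV-Null and at 11.63, 11.58, 11.55 and 11.76 in AAV-αSyn, the narrowest spread of the set. The difference was -0.01 (SE 0.12, 95% interval -0.29 to 0.27; limma adjusted p = 0.998), a fold of 0.994 with an interval of 0.821 to 1.20. *Gbp2* encodes an interferon-induced GTPase. It was at 10.08, 9.57, 9.61 and 9.58 in AAV-Null and at 10.55, 9.80, 9.62 and 9.36 in AAV-αSyn, so that replicate 1 stood above the rest of its group in both. The highest and the lowest of the 8 values were both in AAV-αSyn. The difference was 0.12 (SE 0.25, 95% interval -0.45 to 0.70; limma adjusted p = 0.987).

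**Figure D1:**
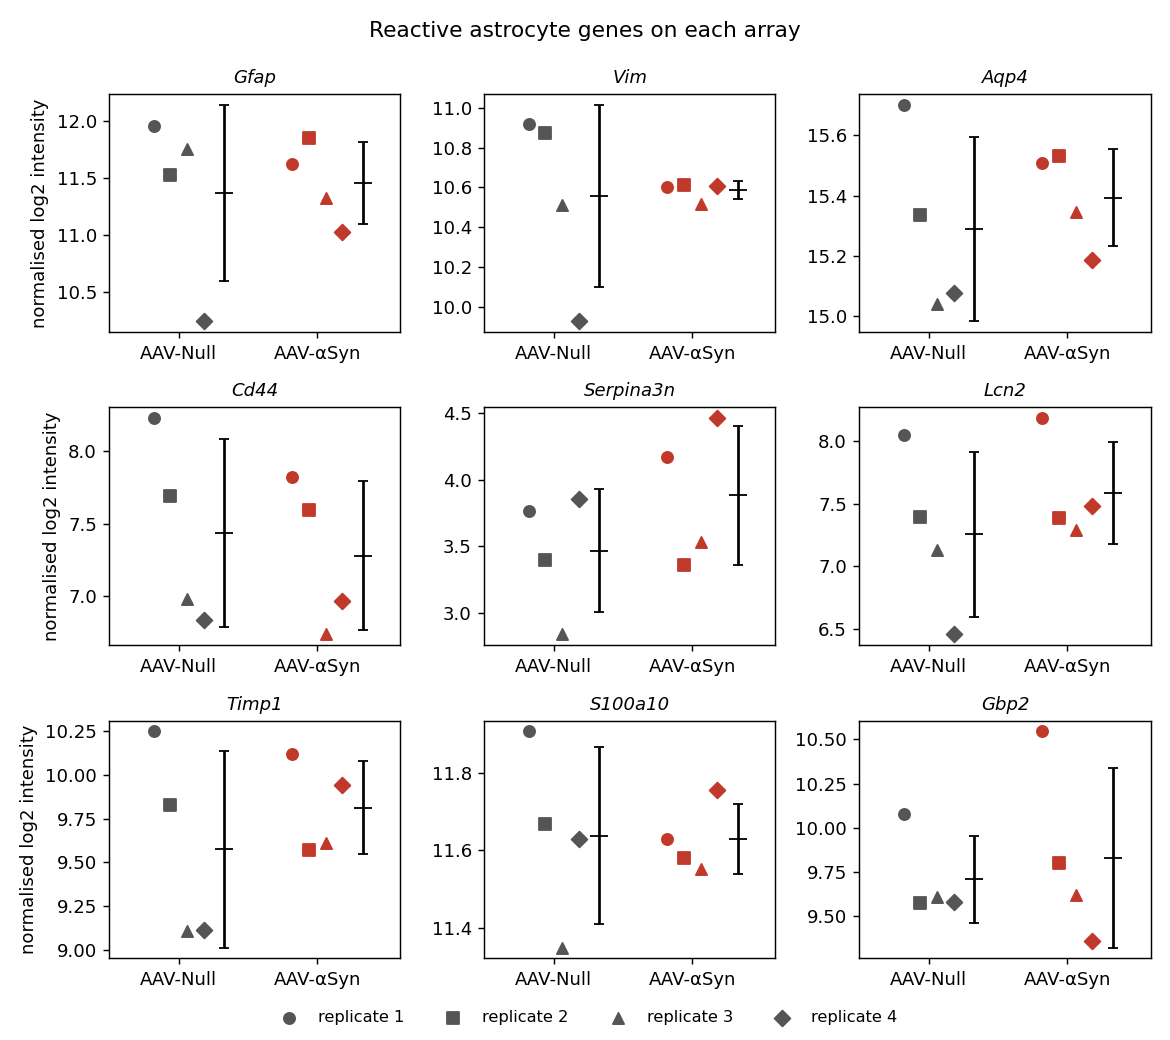
Normalised log2 intensity (vertical axes, not from 0, a scale per gene) of the 9 tested reactive astrocyte genes on each array, for AAV-Null (grey) and AAV-αSyn (red), with marker shapes for replicate numbers and a bar for the mean ± SD (n = 4). In all 9 panels the groups overlap, and the circle of replicate 1 is the top AAV-Null value in 8.

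Of the 9 genes, 7 had a positive and 2 (*Cd44*, *S100a10*) a negative difference, with a median of 0.10 beside 0.01 for all 33848 probes tested. The median was between 0.031 and 0.24 on leaving out single arrays, and -0.051 with array weights, where 5 of the 9 differences were negative. None of the 11 probes had an unadjusted p under 0.05, against 5.65% of all probes tested (limma, 1912 probes), and the smallest was 0.208, for *Serpina3n*. With the replicate number, which is also the row of the slide, as a block, 1 probe did, that of *Serpina3n* (limma unadjusted p = 0.0329, adjusted p = 0.722, 95% interval 0.050 to 0.78). Within rows 1 to 4 its differences were 0.41, -0.037, 0.69 and 0.60. None passed after Benjamini-Hochberg adjustment, against 0.0148% (5 probes). In no gene did the groups fail to overlap, which they did for 3.83% of all probes. The exact two-sided permutation test over the 8 arrays, which can give no p below 0.0286, gave 0.286 for *Serpina3n*, 0.371 for *Lcn2*, 0.486 for *Timp1* and 0.886 for *Gfap*. In all 9 genes the SD within AAV-Null was larger than the difference between the groups. Across the 8 genes above background on all 8 arrays the 95% intervals of the fold changes reached from 0.506 to 2.15.

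**Figure D2:**
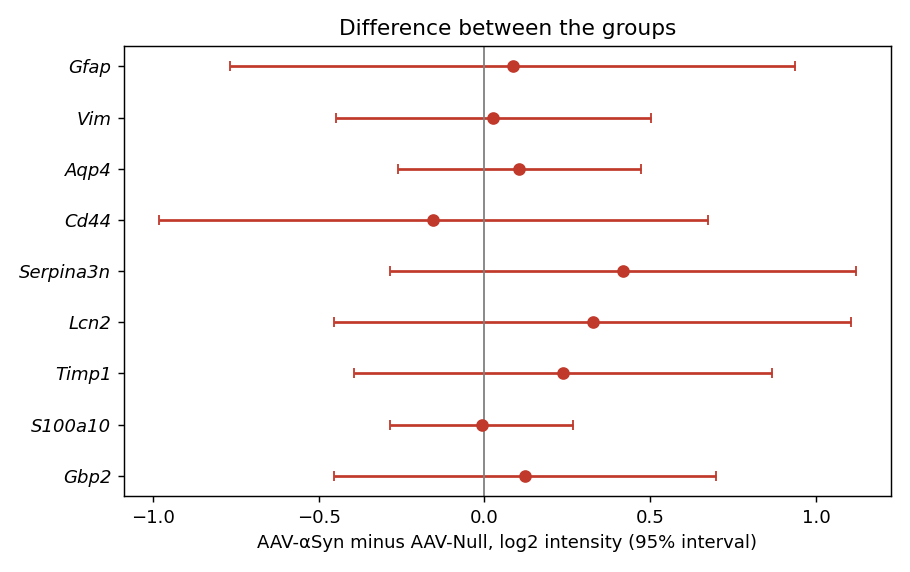
Difference between the groups (AAV-αSyn minus AAV-Null, log2 intensity, horizontal axis) for each tested gene, as points with 95% intervals from limma. Every interval includes 0, and the narrowest is that of *S100a10* (-0.29 to 0.27).

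What the genes did show was a large spread between arrays of the same group, for several genes mainly in AAV-Null. The SD in AAV-αSyn was 0.045 for *Vim*, 0.089 for *S100a10* and 0.16 for *Aqp4*, against 0.46, 0.23 and 0.30 in AAV-Null. For *Serpina3n* and *Gbp2* it was wider in AAV-αSyn (0.52 and 0.51) than in AAV-Null (0.46 and 0.25). The within-group SDs that follow pool both groups. The within-group SD was 0.60 for *Gfap*, 0.58 for *Cd44*, 0.55 for *Lcn2*, 0.49 for *Serpina3n* and 0.44 for *Timp1*, wider than that of 94.1, 93.7, 92.9, 91.2 and 88.8% of all probes tested, respectively. *Gbp2* (0.40) and *Vim* (0.33) were next, while *Aqp4* (0.24) and *S100a10* (0.17) lay nearer to the median of all probes, 0.189. Between the lowest and the highest of the 8 arrays *Lcn2* differed 3.31-fold, *Gfap* 3.27-fold and *Cd44* 2.81-fold, whereas *S100a10* differed 1.47-fold. The lowest *Gfap* value, 10.25 in AAV-Null replicate 4, lay apart from the other controls at 11.53 to 11.96, so the *Gfap* spread rests in part on that array. For *Serpina3n* the lowest array was not well above background, so no fold is given and its SD includes values at background. The median SD was 0.44 for the 9 genes and 0.128 for the 19 genes of resting astrocytes, whose SDs ran from 0.0351 to 0.367. Some other lists of astrogliosis also varied widely, with a median SD of 0.47 for the 6 other pan-reactive genes, 0.38 for the 11 other filament and scar genes and 0.369 for the 8 genes associated with the A1 form. It was 0.287 for the 9 genes associated with the A2 form and 0.202 for the 26 cytokines and receptors. A wide spread was not seen in the 9 genes alone. These SDs are a description, made after the values had been seen, and no test was run on them.

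**Figure D3:**
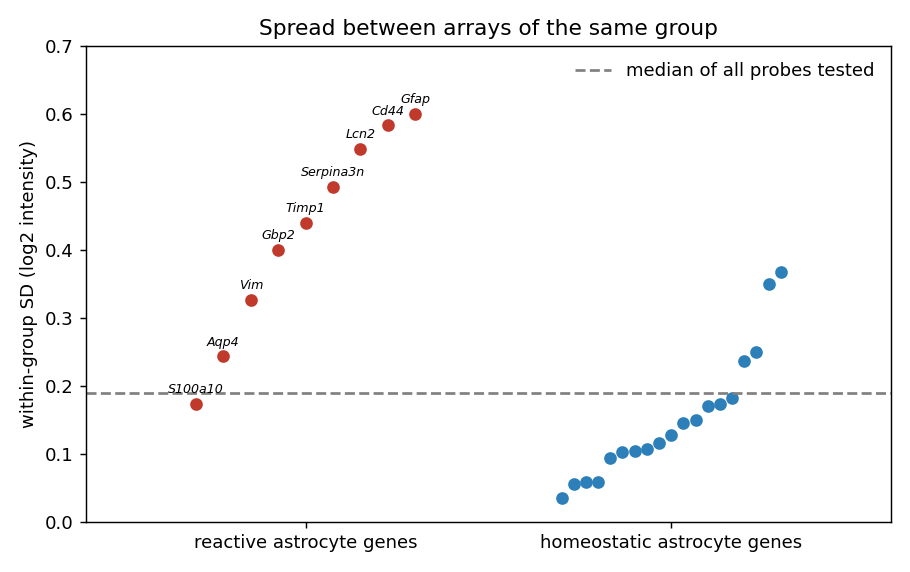
Within-group SD (vertical axis, log2 intensity) of each of the 9 reactive astrocyte genes (red) and of the 19 tested genes of resting astrocytes (blue), with the median of all probes tested (0.189) as a dashed line. Only *S100a10* of the reactive genes lies below the line.

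The arrays that were high or low were in part shared between genes, and not among these genes alone. In AAV-Null replicates 1 to 4 the mean level was ordered alike for the 9 genes (10.09, 9.70, 9.37 and 9.19), for the other filament and scar genes (10.35, 10.15, 10.02 and 9.66), for oligodendrocyte markers (15.16, 15.14, 15.07 and 14.86) and for blood cell markers (9.87, 9.80, 9.20 and 8.78). The remaining lists followed other orders, among them microglia markers (11.73, 11.59, 11.67 and 11.47) and endothelial markers (10.77, 10.93, 11.04 and 10.90). In AAV-αSyn the blood cell and oligodendrocyte markers had another array on top than the 9 genes had. AAV-Null replicate 1 was the highest of its group for 8 of the 9 genes, the exception being *Serpina3n*, where it was replicate 4. AAV-αSyn replicate 1 was the highest of its group for 4 genes, *Cd44*, *Lcn2*, *Timp1* and *Gbp2*. The median deviation from the group mean was 0.41, 0.13, -0.25 and -0.46 for AAV-Null replicates 1 to 4, and 0.29, -0.03, -0.20 and -0.10 for AAV-αSyn replicates 1 to 4. The replicate numbers coincide with the rows of the slide, as read from the array barcodes. The last number of the barcode was taken as the row, which is an assumption. All 8 arrays were on 1 slide, and the arrays of each number shared a row, with the groups alternating between its 2 columns. A term for the row, added to the fit after the values had been seen, had an unadjusted p under 0.05 for 6 of the 11 probes, against 5.05% of all probes tested, and for 4 of the 9 genes. These genes were *Cd44* (limma F test, unadjusted p = 0.00167), *Serpina3n* (0.0133), *Gbp2* (0.0239) and *Lcn2* (0.0352), each with an adjusted p of 0.757. After adjustment no probe of the array passed (0%). Each row held 1 rat of each group, so the row and the rats it held cannot be told apart.

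**Figure D4:**
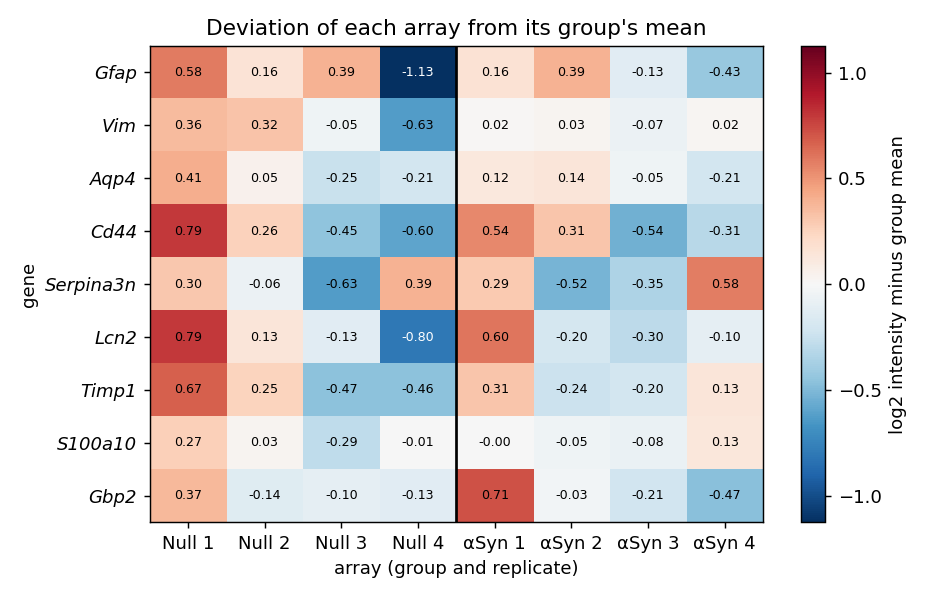
Deviation of each array (columns) from the mean of its group for each gene (rows), in log2 intensity, red above and blue below the mean. The arrays of replicate 1 are above the mean of their group in both groups for 8 of the 9 genes, and AAV-Null replicate 4 holds the largest negative value, in *Gfap*.

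The genes were also compared in pairs over the 8 arrays. *Gfap* correlated with *Vim* (Pearson r = 0.821, exact permutation p = 0.0294, adjusted over the 8 pairs with *Gfap* 0.169; Spearman rho = 0.571, exact permutation p = 0.151, adjusted 0.302). Without AAV-Null replicate 4 and AAV-αSyn replicate 4, the arrays farthest from the median of *Gfap*, r was 0.353, so the relation rests on those arrays. For *Gfap* with *Cd44*, r was 0.652 (exact permutation p = 0.0634, adjusted 0.169) and rho 0.738 (exact permutation p = 0.0458, adjusted 0.302), and r was 0.626 without the same arrays. The most negative coefficient was that with *Serpina3n*, r = -0.408 (exact permutation p = 0.318, adjusted 0.363) and rho = -0.5 (exact permutation p = 0.216, adjusted 0.346), and -0.0787 without those arrays. None of the 8 pairs passed adjustment. Of all 36 pairs of the 9 genes, 33 had a positive r and the median was 0.64, or 0.645 after each value was set against its group mean. The strongest was *Lcn2* with *Timp1* (r = 0.894, exact permutation p = 0.00265, adjusted over the 36 pairs 0.0955; rho = 0.929, exact permutation p = 0.00223, adjusted 0.0804), with r = 0.887 without AAV-Null replicate 4 and AAV-αSyn replicate 1. None of the 36 pairs passed adjustment. The pairs share genes and so are not independent, and pairs of other genes were not compared. The slide columns hold 4 arrays each and the rows 2, too few for a coefficient within them.

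Other genes of astrogliosis were taken from 5 lists of 64 genes, of which 60 were tested. Of these, 3 were higher and 1 lower in AAV-αSyn at an unadjusted p under 0.05, which is 6.67% of those tested beside 5.65% of all probes, and none passed after adjustment. The 6 other pan-reactive genes all had positive differences, with a median of 0.18 and none with an unadjusted p under 0.05. The largest were those of *Cxcl10*, an interferon-induced chemokine (0.83, limma adjusted p = 0.961), *Aspg* (0.38, adjusted p = 0.973) and *Cp*, which encodes ceruloplasmin (0.19, adjusted p = 0.973). *Cxcl10* was at 6.36, 5.39, 5.49 and 6.43 in AAV-Null and at 8.31, 6.57, 6.22 and 5.89 in AAV-αSyn, with AAV-αSyn replicate 1 the highest of all and AAV-αSyn replicates 3 and 4 among the controls. *Aspg* ran from 5.50 to 7.63 in AAV-Null and from 6.31 to 7.36 in AAV-αSyn.

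Of the 8 tested genes associated with the A1 form, 5 had a positive and 3 a negative difference, with a median of 0.18. *Fkbp5*, a glucocorticoid-induced co-chaperone, was at 11.40, 11.30, 10.77 and 10.87 in AAV-Null and at 10.57, 10.64, 10.62 and 10.73 in AAV-αSyn, lower without overlap (difference -0.44, SE 0.15, limma unadjusted p = 0.0169, adjusted p = 0.760). *Srgn*, which encodes the proteoglycan serglycin of leukocyte granules, was at 10.78, 10.82, 10.90 and 10.78 in AAV-Null and at 11.07, 10.96, 10.94 and 10.99 in AAV-αSyn (difference 0.17, limma unadjusted p = 0.0357, adjusted p = 0.848), also without overlap. Complement *C3* differed by 0.26 (limma unadjusted p = 0.321). *Ggta1*, with a difference of 0.52, was well above background on 1 array only. Of the 9 tested genes associated with the A2 form, 7 had a positive difference, with a median of 0.23. *Slc10a6*, a transporter of steroid sulphates, was at 4.94 to 5.33 in AAV-Null and 5.20 to 5.72 in AAV-αSyn (difference 0.38, limma unadjusted p = 0.0228, adjusted p = 0.812). *Ptx3*, which encodes a pentraxin, differed by 0.39 (limma adjusted p = 0.921) and *Cd14*, the co-receptor for lipopolysaccharide, by 0.25 (adjusted p = 0.943).

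The 11 other filament and scar genes had 5 positive and 6 negative differences, with a median of -0.05. None had an unadjusted p under 0.05. The largest were those of the lectin *Lgals3* (0.47, limma unadjusted p = 0.435), of tenascin C, *Tnc* (-0.27), and of the metallothionein *Mt2A* (0.17). *Lgals3* was at 11.19, 10.12, 8.84 and 8.97 in AAV-Null and at 11.08, 10.60, 9.46 and 9.85 in AAV-αSyn, with replicates 1 and 2 above replicates 3 and 4 as in *Cd44*. *Mt2A* was at 14.37, 13.56, 13.05 and 12.52 in AAV-Null and at 13.88, 13.56, 13.34 and 13.40 in AAV-αSyn, with replicate 1 on top in both groups.

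Among the cytokines and receptors that drive astrogliosis, 26 of 27 genes were tested (not *Il6*), 15 with a positive and 11 with a negative difference and a median of 0.04. *Tgfbr2*, a receptor subunit for transforming growth factor β, was at 10.21, 10.23, 9.92 and 10.24 in AAV-Null and at 10.51, 10.37, 10.32 and 10.35 in AAV-αSyn (difference 0.24, SE 0.10, limma unadjusted p = 0.0370, adjusted p = 0.850). Its other probe differed by 0.02 (limma unadjusted p = 0.837), so the probes disagreed. The signals that act from microglia, *Il1b* (0.40), *Il1a* (0.24) and *C1qc* (-0.27), had no unadjusted p under 0.05. The 19 genes of resting astrocytes had differences between -0.25 and 0.13, 14 negative and 5 positive, with a median of -0.02 and none with an unadjusted p under 0.05. The largest were those of the GABA transporter *Slc6a11* (-0.25), the folate enzyme *Aldh1l1* (-0.22) and the potassium channel *Kcnj10* (-0.22).

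Some markers of other cells had an unadjusted p under 0.05 in limma, as 5.65% of all probes tested did, and none passed adjustment. The 7 dopaminergic markers all had negative differences, 4 of them at an unadjusted p under 0.05 in limma: *Th* (-0.52, adjusted p = 0.483), *Slc6a3* (-0.79, adjusted p = 0.748), *Pitx3* (-0.78, adjusted p = 0.748) and *Ddc* (-0.25, adjusted p = 0.835). Their mean level was 12.47 to 12.93 in AAV-Null and 12.06 to 12.38 in AAV-αSyn. The 3 serotonergic markers had a mean of 5.24 to 8.40 in AAV-Null and 7.47 to 9.14 in AAV-αSyn, with differences of 2.35 for *Tph2* (limma adjusted p = 0.600) and 2.30 for *Slc6a4* (adjusted p = 0.760). The 3 tested thalamic markers were at 11.44 to 12.99 and 11.13 to 11.81, with a difference of -1.56 for *Prkcd* (limma adjusted p = 0.784). Of the pan-neuronal markers, at 13.57 to 13.84 and 13.59 to 13.72, *Syt1* had a difference of -0.40 (limma adjusted p = 0.675). The other 4 had positive differences, and the median of the list was 0.04. No marker of microglia (11.47 to 11.73 in AAV-Null, 11.50 to 11.77 in AAV-αSyn), oligodendrocytes (14.86 to 15.16, 15.05 to 15.24), endothelial cells (10.77 to 11.04, 10.90 to 11.00), mural cells and fibroblasts (8.48 to 8.91, 8.41 to 8.83), blood (8.78 to 9.87, 8.99 to 9.51) or ependyma and choroid plexus (5.97 to 6.86, 6.06 to 7.50) had an unadjusted p under 0.05. The mean level of the 9 reactive astrocyte genes was 9.19 to 10.09 in AAV-Null and 9.50 to 10.02 in AAV-αSyn. The part of the dopaminergic, serotonergic and thalamic differences in the values of the reactive astrocyte genes was not tested.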

How the data were processed

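RNA of the SN had been hybridised to 8 1-colour Agilent rat arrays, 4 per group, each taken as 1 rat. The authors deposited 1 scanner file per array with background-corrected intensity values and flags (Agilent Feature Extraction 12.0.3.2 per the file headers, 11.5.1.1 per the labels) and a matrix of quantile-normalised log2 values, which served as an alternative. Groups and replicate numbers came from the labels. Slide positions came from the numbers that end the array barcode in the file headers, the last taken as the row and the one before it as the column. P-values measure the spread between these rats only.

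Control and outlier spots were removed, log2 intensity was quantile-normalised, and spots of a probe were averaged. Probes with at least a 0.5 share of spots well above background on 1 array or more were tested (33848 of 45598) with limma 3.58.1 in R 4.3.3, two-sided, with Benjamini-Hochberg adjustment at 0.05. Single genes were also tested by exact permutation of the arrays. The scripts were tested on simulated data. RefSeq identifiers named 21229 probes (GRCr8 table), and the brightest probe represented a gene. No probe was saturated, and the number of arrays limits the precision.

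The members and lists were chosen with earlier results of these data known. All members are named and, of each other astrocyte list, genes with an unadjusted p under 0.05 and the 3 largest differences; of other cell types, genes with an unadjusted p under 0.05 and *Th*. *Lgals3* and *Mt2A* are also given by array. Alternatives were 75th-percentile or cyclic loess scaling, normexp background correction (offset 50), other filters, the deposited matrix, other variance models, blocks for replicate number and slide column, the mean over a gene's probes, and leaving out each array.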

Additional observations from a re-analysis of the deposited data

Results flagged for a closer look

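In 2 of the 22 sets of 4 arrays examined, a set being 1 member probe in 1 group, a single array lay far from the others, with a gap to its nearest neighbour, as a share of the range of the set, above Dixon's critical value. Chance alone would give about 1.1 such sets. For *Gbp2*, AAV-Null replicate 1 was at 10.08 and the other AAV-Null arrays between 9.57 and 9.61, a gap of 0.931 of the range. For *Vim*, AAV-αSyn replicate 3 was at 10.52 and the other AAV-αSyn arrays at 10.60 to 10.61, a gap of 0.885 of a range that was itself narrow.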

How the results depend on the processing

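In all alternatives no member gene had groups without overlap, and no member probe passed adjustment. *Serpina3n*, *Lcn2* and *Aqp4* had positive differences in all alternatives in which they were tested, between 0.078 and 0.59, 0.059 and 0.59, and 0.018 and 0.24, respectively. Array weights turned the differences of *Gfap* (-0.072), *Vim* (-0.22) and *Timp1* (-0.051). Leaving out each array in turn gave ranges of -0.29 to 0.28 for *Gfap*, -0.18 to 0.15 for *Vim*, -0.35 to 0.11 for *Cd44*, -0.11 to 0.080 for *S100a10* and -0.12 to 0.28 for *Gbp2*, so the sign of these 5 differences depended on single arrays, and leaving out both arrays of slide row 1, an alternative chosen after seeing the data, gave 0.080 for *S100a10*. The median difference of the 9 genes was -0.051 with array weights (leave-one-out range 0.031 to 0.24). The count of probes with an unadjusted p under 0.05 was 5757 with array weights (leave-one-out range 1436 to 2793). The count after adjustment was 9 with trend and robust estimation, 12 with array weights, 3 with the slide column as a block and 1 without slide row 1 (leave-one-out range 3 to 5). For the other astrocyte lists, resting genes included, the count of 4 became 15 with array weights and 1 to 9 on leaving out an array, the 9 on removal of replicate 4 of AAV-Null and the 1 on removal of replicate 2 of AAV-αSyn (2 for each other AAV-αSyn array).

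The correlations of deviations between arrays of the same replicate number were 0.144, 0.267, 0.0407 and -0.00221, so the numbers were not taken as pairing the rats. With the replicate number as a block, 0 probes passed adjustment, and 1 member probe, that of *Serpina3n*, had an unadjusted p under 0.05 (0.0329, adjusted 0.722, difference 0.42). The number of arrays and a dim *Serpina3n* probe limit what can be seen, and *Osmr* was below background. The scaling of the arrays moved the median of all probes by less than 0.1.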
